A study of Mus musculus with 4 samples.

Results

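The IL-12 family subunits are the polypeptide chains that pair up to make a small family of cytokines. They were chosen by symbol, as every row whose gene was Il12a, Il12b, Il23a, Il27 or Ebi3, which gave 5 of the 23703 genes listed in either table of expression values. All 5 were listed in the first pair of libraries and 4 in the second, and those 4 passed the filter on low values. The expression values were RPKM (reads scaled by gene length and by library size), one per gene and library.

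RNA sequencing was done on mature dendritic cells (maDC), which were cultured out of marrow from 6-week-old mice in GM-CSF at 10 ng/ml with IL-4 at 1 ng/ml, purified with magnetic beads that bind CD11c and then matured with LPS at 100 ng/ml for 24 h. Mettl3 encodes the catalytic subunit of the enzyme complex that writes N6-methyladenosine, the commonest internal modification of mRNA. The 4 libraries were 2 from littermates with 2 floxed and intact Mettl3 alleles (Mettl3WT) and 2 from Mettl3 fl/fl CD11c-Cre mice (Mettl3KO), in which Cre is driven by the CD11c promoter and removes exons 2 to 4 of Mettl3. Both groups therefore carried the floxed allele and had received the same cytokines and LPS. In the study's naming the Cre transgene was present in Mettl3KO mice alone, so it and the loss of Mettl3 cannot be told apart. A pair holds 1 Mettl3WT and 1 Mettl3KO library of the same replicate number, and these were taken as littermates. A comparison below thus rests on 2 pairs, or on pair 1 alone for a gene listed there alone.

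Each active cytokine of the family joins a cytokine-like alpha chain to a beta chain that resembles a soluble receptor. Il12a and Il12b encode the chains of IL-12, which drives interferon-gamma production by T and NK cells. Il23a pairs with the same Il12b product to make IL-23, which maintains IL-17-producing T cells. Il27 pairs with the product of Ebi3 to make IL-27, which can both promote and restrain T cell responses, and Ebi3 with the product of Il12a makes IL-35. Dendritic cells that sense LPS are a main source of IL-12, and Il12b is strongly induced in them by LPS.

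The sequences bearing on the 2 beta chains are shown first, because the values below part these genes from each other. The promoters run from 250 bases before to 50 bases after the annotated start (RefSeq, GRCm38), both on the plus strand, at chr11:44399813-44400112 for Il12b and chr17:55952373-55952672 for Ebi3. Capitals mark letters that matched a searched motif, read on both strands.
Il12b promoter: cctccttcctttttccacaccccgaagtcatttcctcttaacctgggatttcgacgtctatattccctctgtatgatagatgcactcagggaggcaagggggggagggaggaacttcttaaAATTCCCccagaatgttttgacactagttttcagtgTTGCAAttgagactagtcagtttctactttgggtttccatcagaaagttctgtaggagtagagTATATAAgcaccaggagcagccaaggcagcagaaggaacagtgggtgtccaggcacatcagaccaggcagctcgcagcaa
Ebi3 promoter: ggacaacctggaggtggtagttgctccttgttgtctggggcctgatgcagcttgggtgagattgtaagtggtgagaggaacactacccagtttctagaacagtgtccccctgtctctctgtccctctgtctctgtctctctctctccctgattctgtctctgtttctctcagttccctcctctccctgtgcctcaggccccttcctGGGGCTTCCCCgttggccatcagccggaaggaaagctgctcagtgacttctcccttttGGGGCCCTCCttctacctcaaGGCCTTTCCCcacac

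In the Il12b window, the NF-kB half-site letters GGGAATT stood on the minus strand at positions -129 to -123 from the start, the C/EBP letters TTGCAA at -93 to -88 and the TATA box letters TATANAA at -30 to -24. Over all 32851 promoter windows of this length, 3.5% held the NF-kB half-site, 6.2% the C/EBP letters and 11.3% the TATA letters. The Ebi3 window held none of these 3 but matched the looser NF-kB pattern, GGG and CC with any 5 bases between, at 4 positions, from -44 to -35, from -43 to -34 (the same letters shifted by 1 base), from 15 to 24 and, on the minus strand, from 36 to 45. That looser pattern was in 50.8% of all promoter windows. Il12a had 2 annotated starts, and its windows matched the C/EBP letters in one and the looser NF-kB pattern in the other. The windows searched were those of Il12a, Il12b and Ebi3, and none of these 4 matched the AP-1 letters TGANTCA or the interferon response pattern (GAAA, any 2 bases, GAAA), which were in 7.8% and 3.4% of all windows. These matches describe the letters of the windows and nothing more.

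The letters GGACT are the most frequent form of the sequence in which the METTL3 complex methylates the adenosine. In the longest coding transcript of each member (GENCODE M21, GRCm38) they occurred 4 times in Il12b, 5 times in Il23a, 3 times in Ebi3, once in Il12a and 0 times in Il27, against a median of 3 over 21877 transcripts, of which 87.6% held at least 1. Per kb of transcript that was 2.06 in Il12b, 3.68 in Il23a, 2.6 in Ebi3, 0.77 in Il12a and 0 in Il27, against a median of 1.01. The windows of the 2 beta chains follow, with GGACT in capitals and 10 bases on each side.
Il12b, chr11:44407824-44407828 (+), exon 3, coding: ttgtagaggtGGACTggactcccga
Il12b, chr11:44407829-44407833 (+), exon 3, coding: gaggtggactGGACTcccgatgccc
Il12b, chr11:44408546-44408550 (+), exon 4, coding: aaagaaacatGGACTtgaagttcaa
Il12b, chr11:44410204-44410208 (+), exon 5, coding: tggaccaaagGGACTatgagaagta
Ebi3, chr17:55953950-55953954 (+), exon 2, coding: ccgtggccgtGGACTgctcctggac
Ebi3, chr17:55953961-55953965 (+), exon 2, coding: gactgctcctGGACTcctctccagg
Ebi3, chr17:55956782-55956786 (+), exon 5, 3' UTR: ccctgaagagGGACTggatccttga

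All 4 matches in Il12b lay in coding sequence, and the first 2 were adjacent, whereas Ebi3 had 2 in coding sequence and 1 in the 3′ UTR. Il23a carried 2 in coding sequence, 2 in the 3′ UTR and 1 in the 5′ UTR. The AU-rich letters ATTTA, a part of many elements that shorten the life of cytokine mRNAs, occurred 6 times each in Il12a, Il12b and Il23a, 5 times in Il27 and once in Ebi3, and 75.9% of all transcripts held at least 1. No methylation was measured in these libraries, so these letters mark where the motif stands and not where the mark was. Of Il6, Il12b and H2-Eb2, the study names Il6 and H2-Eb2 as having N6-methyladenosine peaks, from other libraries. It reports that the mRNA lifetime of these genes did not differ between the genotypes.

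The libraries held 31250000 to 35560000 reads, as worked out from the steps between low RPKM values. Mettl3 itself was at 5.31 and 5.10 RPKM in the Mettl3WT libraries and at 4.59 and 4.39 in the Mettl3KO libraries (log2 difference -0.18, SE 0.21, Benjamini-Hochberg adjusted p = 0.994 by limma). Those values cover the whole gene and not exons 2 to 4 alone, so they test the labels only weakly. The study itself reports, from its RNA sequencing, that exons 2 to 4 were missing in Mettl3KO cells, and that Mettl3 protein was greatly reduced. The X-linked Xist was at 0.0502 RPKM in Mettl3WT and 37.8 in Mettl3KO of pair 1 while the Y-linked Ddx3y was at 29.1 and 0.0243, so in that pair the sex of the mouse and the genotype cannot be told apart. Neither was listed in pair 2, whose table holds only genes above 1 RPKM in both libraries. The sex of the mice of pair 2 is thus not known from these values, and whether it differed along with genotype could not be tested. All 10 dendritic cell markers were listed in every library, from Flt3, a growth factor receptor, at 4.74 to 15.7 RPKM and Zbtb46, a transcription factor of these cells, at 6.41 to 21.9 RPKM up to the chemokine gene Ccl22 at 1497 to 4830.2 RPKM, whereas all 7 T cell markers together came to 8.84 and 9.63 RPKM in pair 1 and the 4 listed of 5 B cell markers to 1.52 and 1.79 RPKM. The 6 NK cell markers summed to 8.27 and 7.33 RPKM there, and of the 5 plasmacytoid dendritic cell markers, which summed to 821 and 1254 RPKM, the defining Siglech was listed at 0 and 0.0946 RPKM.

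The order of the subunit transcripts differed between the genotypes. Il12b was the most abundant of the 5 in both Mettl3WT libraries, at 167 and 364 RPKM, with Ebi3 next at 113 and 108 RPKM. In both Mettl3KO libraries Ebi3 came first, at 99.3 and 121 RPKM, and Il12b second, at 86.8 and 83.9 RPKM. The alpha chain transcripts were scarcer in every library, and none exceeded 13.2 RPKM. Il12a stood above Il27 in Mettl3WT of pair 1 and below it in the other 3 libraries, and in Mettl3KO of pair 1 these 2 differed by less than their counting intervals (8.05 RPKM, interval 7.24 to 8.94, against 8.40 RPKM, interval 7.46 to 9.42). Il23a was the lowest, under 0.1 RPKM in both libraries of pair 1.

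**Figure D1:**
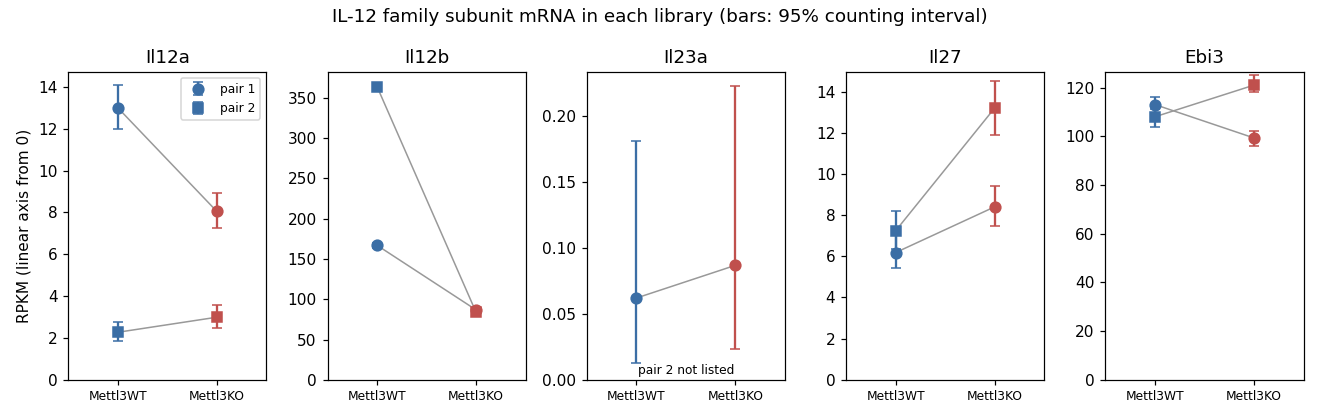
Expression of the 5 subunits in each library, in RPKM on linear axes that start at 0, with circles for pair 1, squares for pair 2, lines joining the libraries of a pair and bars for the 95% counting interval. Il12b drops from 167 and 364 RPKM in Mettl3WT to 86.8 and 83.9 RPKM in Mettl3KO, Il27 is higher in Mettl3KO in both pairs, the lines of Il12a and Ebi3 slope in opposite directions in the 2 pairs, and Il23a has values in pair 1 alone.

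Il12b (chr11:44400063-44414677, plus strand, mm10) encodes the beta chain that IL-12 and IL-23 share. Its level was 167 RPKM in Mettl3WT and 86.8 in Mettl3KO of pair 1, and 364 RPKM in Mettl3WT and 83.9 in Mettl3KO of pair 2. Both Mettl3KO libraries were below both Mettl3WT libraries, and the Mettl3KO libraries were nearly equal whereas the Mettl3WT libraries differed more than 2-fold. The group means were 265 ± 139 RPKM in Mettl3WT and 85.3 ± 2.03 RPKM in Mettl3KO (SD, n = 2 each). Among all 11757 genes tested, 10.2% likewise had both Mettl3KO values below both Mettl3WT values. By rank, Il12b went from the 414th to the 790th most abundant of 23690 genes in pair 1 and from the 227th to the 850th of 11835 genes in pair 2.

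Within pairs, Il12b was 1.93-fold lower in Mettl3KO in pair 1 (51.9% of Mettl3WT, 95% counting interval 50.3% to 53.6%) and 4.33-fold lower in pair 2 (23.1%, interval 22.4% to 23.8%). These intervals, which rest on about 11559 and 5705 reads in pair 1 and 23052 and 5097 reads in pair 2, cover counting error only and did not overlap, so the pairs differed in the size of the difference by more than counting error. The fitted log2 difference was -1.52 (SE 0.30, unadjusted p = 0.000479, Benjamini-Hochberg adjusted p = 0.182 over all 11757 genes by limma with the pair as a block), which did not pass 0.05. Ordered from the lowest fitted difference Il12b was the 10th gene, and by p it was the 31st. The test called 3 genes lower in Mettl3KO, 0.0255% of those tested, and 2 genes higher, 0.0170%, and Il12b was in neither group. When limma was fitted on the 10027 protein-coding genes alone, Il12b passed, as 1 of 25 genes called lower (0.249%). Its log2 difference was -1.52 (SE 0.27, adjusted p = 0.0160 by limma). Its values were the same in that fit. What differed was the spread that limma borrows from other genes, and the number of genes adjusted for. Over all settings tried its adjusted p by limma ranged from 0.0160 to 1.0. Without the Mettl3WT library of pair 2 the log2 difference was -0.96 and without that of pair 1 it was -2.08.

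The pairs were also read against a fold rule that is not a test, a ratio of RPKM + 1 of 1.5 or more, in 1 direction, in each pair. Il12b was the only member to meet it, as 1 of 56 genes on the lower side, 0.476% of those tested. On the higher side 86 genes met the rule, 0.731%, and no member was among them. At 2-fold no member met it, because Il12b was 1.93-fold lower in pair 1.

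Markers of cell types also differed between the libraries, not all in the direction of Il12b, and their part in the Il12b result was not tested. The 10 dendritic cell markers summed to 11434 RPKM in Mettl3WT and 9828 in Mettl3KO of pair 1, and to 11096 and 6458 RPKM in pair 2. Ccl22, Ccr7, Fscn1 and Cd74 made up most of these sums. Of the 10 markers 6 were lower in Mettl3KO in both pairs, against 30.8% of all genes tested, and 0 higher in both, against 19.1%. Ccl17 was at 15.8 and 12.6 RPKM in pair 1, then 16.6 and 34.3 in pair 2. The markers of monocytes or macrophages, 12 of 12 listed in both pairs, summed to 4431 and 5453 RPKM in pair 1, then to 11665 and 16452 in pair 2. Lyz2, a lysozyme gene, made up most of these sums, at 3361 and 4343 RPKM in pair 1, then 9144 and 12729 in pair 2. Of the 12 markers 5 were higher in Mettl3KO in both pairs, against 19.1% of all genes tested, and 0 lower in both, against 30.8%. Apoe, C1qa, C1qb and C1qc were lower in Mettl3KO in pair 2. The granulocyte markers went in opposite directions, from 2468 in Mettl3WT to 5638 RPKM in Mettl3KO over the 11 of 12 genes listed in pair 1, and from 3079 to 177 RPKM over the 5 listed in pair 2. Among them S100a9, a calcium-binding protein gene of neutrophils, was at 1237 and 2843 RPKM in pair 1 and at 1844 and 2.57 in pair 2. In pair 2 the maturation marker Fscn1, an actin bundling protein, was at 1368 RPKM in Mettl3WT and 505 in Mettl3KO, and Cd83 at 303 and 132 RPKM, whereas Itgax, which encodes CD11c itself, was at 17.2 and 51.0 RPKM. In pair 1 the same 3 genes were at 1554 and 1586, 390 and 336, and 12.6 and 9.66 RPKM. In such bulk samples fewer cells that express a gene and less RNA per cell cannot be told apart.

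Il12a (chr3:68690644-68698550, plus strand) encodes the alpha chain found in IL-12 and IL-35. It was at 13.0 RPKM in Mettl3WT and 8.05 in Mettl3KO of pair 1, and at 2.27 RPKM in Mettl3WT and 2.99 in Mettl3KO of pair 2. The pairs were further apart than the genotypes, with both libraries of pair 1 above both of pair 2. In pair 1 the Mettl3KO level was 61.9% of that in Mettl3WT (54.1% to 70.7% by counting error), and in pair 2 it was 131% (99.7% to 173%), the latter from about 97 and 122 reads. The 2 ratios thus pointed in opposite directions, the first beyond counting error and the second not, a pattern of lower in pair 1 and higher in pair 2 shared by 22.5% of all genes tested. The fitted log2 difference was -0.17 (SE 0.26, adjusted p = 0.994 by limma). It took the other sign, 0.42 and 0.88, without Mettl3KO replicate 2 and without Mettl3WT replicate 1. Those 2 fits had no block, so they mix the large difference between the pairs with that between the genotypes.

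Il23a (chr10:128296140-128298084, minus strand) encodes the alpha chain of IL-23. It was listed at 0.0620 RPKM in Mettl3WT and 0.0868 RPKM in Mettl3KO of pair 1, which stand for about 3 and 4 reads, with counting intervals of 0.0128 to 0.181 RPKM and 0.0237 to 0.223 RPKM. These intervals overlapped almost wholly, and the ratio of 139.9% had an interval of 23.7% to 957%, so no difference was detectable at this depth. The second table lists only genes above 1 RPKM in both of its libraries, and Il23a of pair 2 was not analysed here. Stat2, the nearest tested protein-coding gene at 3.29 kb, was at 78.8 and 119 RPKM in the same libraries.

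Il27 (chr7:126589009-126595021, minus strand) encodes the alpha chain of IL-27. Its level was 6.18 RPKM in Mettl3WT and 8.40 in Mettl3KO of pair 1, and 7.24 RPKM in Mettl3WT and 13.2 in Mettl3KO of pair 2. Both Mettl3KO libraries lay above both Mettl3WT libraries, as was so for 4.70% of all genes tested. The Mettl3KO level reached 136% of Mettl3WT in pair 1, with a counting interval of 113% to 162%, and 182% in pair 2, with one of 155% to 214%, both beyond counting error. The group means were 6.71 ± 0.745 RPKM in Mettl3WT and 10.8 ± 3.37 RPKM in Mettl3KO (SD, n = 2 each). The fitted log2 difference of 0.59 (SE 0.22, unadjusted p = 0.0257) had an adjusted p of 0.766 by limma and did not pass, and it was the 248th highest of all genes tested. The neighbouring Cln3, a lysosomal membrane protein gene 3.19 kb away, was level, at 18.5 and 18.6 RPKM in pair 1, then 17.8 and 17.8 in pair 2.

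Ebi3 (chr17:55952623-55957022, plus strand) encodes the beta chain of IL-27 and IL-35. It was at 113 RPKM in Mettl3WT and 99.3 in Mettl3KO of pair 1, and at 108 RPKM in Mettl3WT and 121 in Mettl3KO of pair 2. The groups overlapped, since the Mettl3KO libraries were the lowest and the highest of the 4. Their means were 110.3 ± 3.66 RPKM in Mettl3WT and 110.3 ± 15.5 RPKM in Mettl3KO (SD, n = 2 each), and the fitted log2 difference was -0.01 (SE 0.23, adjusted p = 1.0 by limma). Within pairs Mettl3KO had 87.9% (84.3% to 91.8%) and 112% (108% to 117%) of the Mettl3WT level, so each pair differed beyond counting error and the pairs went opposite ways, as Il12a did.

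**Figure D2:**
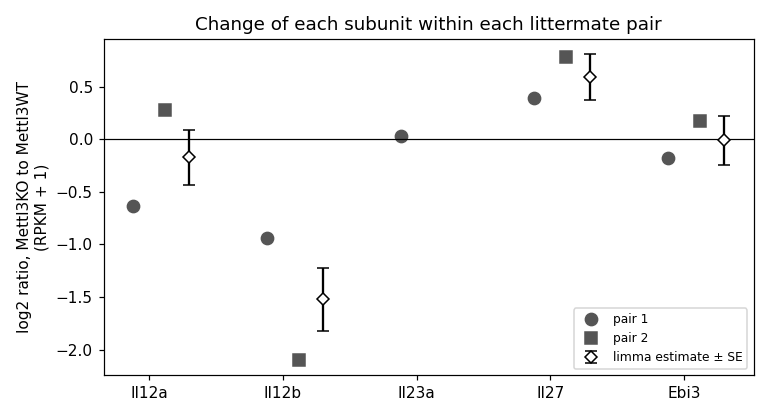
Log2 ratio of Mettl3KO to Mettl3WT for each subunit, on log2(RPKM + 1), with circles for pair 1, squares for pair 2 and diamonds with bars for the limma estimate and its standard error. Il12b is below 0 in both pairs (-0.94 and -2.10), Il27 above 0 in both (0.39 and 0.78), and Il12a and Ebi3 have 1 pair on each side of 0.

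Of the members, 1 of the 4 tested was lower in both pairs (Il12b), against 30.8% of all genes tested. Another 1 was higher in both (Il27), against 19.1%, and 2 were lower in pair 1 and higher in pair 2, against 22.5%. None passed limma's test over all genes. At an unadjusted p under 0.05 by limma there was 1 member in each direction. Over the 11757 genes tested there were 346 higher and 308 lower. The median log2 difference of the 4 members was -0.09, beside -0.05 over all genes tested. In pair 1 the median was -0.41 and in pair 2 it was 0.23, beside -0.02 and -0.08 over all genes.

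**Figure D3:**
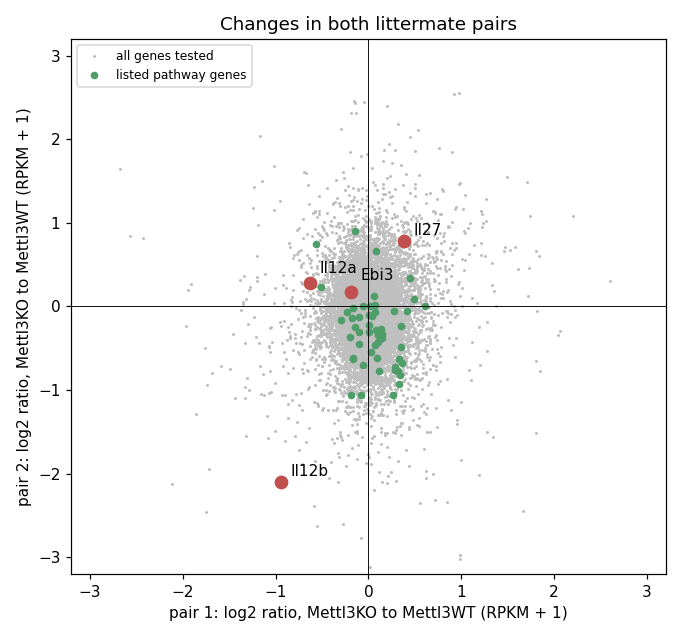
Log2 ratio of Mettl3KO to Mettl3WT on log2(RPKM + 1) in pair 1 (horizontal) and pair 2 (vertical) for the 11757 genes tested (grey), the listed pathway genes (green) and the 4 tested members (red), with 13 genes outside the axes. Il12b sits in the lower left corner, away from the mass of genes, and Il27 in the upper right, while Il12a and Ebi3 lie to the upper left.

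The balance of the 2 chains within each cytokine was followed as a ratio of RPKM, in which the size of the library cancels. For IL-12, Il12b exceeded Il12a 12.9-fold in Mettl3WT and 10.8-fold in Mettl3KO of pair 1, and 159.9-fold and 28.1-fold in pair 2. The beta chain transcript was in excess in every library, with far less excess in pair 1. The Mettl3KO libraries differed from Mettl3WT by -0.31 and -2.39 on the log2 scale of RPKM + 1, a mean of -1.35 (exact permutation test, two-sided, p = 0.667, where 2 against 2 libraries cannot go below 0.333). This test and those of the other ratios take the libraries as unpaired, and a permutation within the 2 pairs could not go below 0.5. Without Mettl3WT replicate 2 the difference was 0.26, but it was then unpaired and set libraries of both pairs against Mettl3WT of pair 1. Within pair 1, which does not hold the library left out, the difference was below 0 (-0.31). For IL-23 in pair 1, Il12b exceeded Il23a 2695-fold in Mettl3WT (counting interval 922 to 13073) and 999.6-fold in Mettl3KO (389 to 3663), and these intervals overlapped.

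For IL-27, Ebi3 exceeded Il27 18.3-fold in Mettl3WT and 11.8-fold in Mettl3KO of pair 1, and 14.9-fold and 9.20-fold in pair 2. The ratio was lower in both Mettl3KO libraries than in both Mettl3WT libraries, and the pairs were close, at -0.57 and -0.61 on the log2 scale (mean -0.59, exact permutation p = 0.333, the smallest this unpaired test allows). Put as a share, Il27 made up 5.19% and 6.30% of the summed RPKM of both IL-27 subunits in Mettl3WT and 7.80% and 9.80% in Mettl3KO. For IL-35, Ebi3 exceeded Il12a 8.68-fold and 12.3-fold in pair 1 and 47.4-fold and 40.6-fold in pair 2, and the genotypes differed in opposite directions in the pairs (0.45 and -0.12, exact permutation p = 1.0).

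The 2 receptor-like beta chains were also set against each other. Il12b stood at 1.48 times Ebi3 in Mettl3WT and 0.874 times in Mettl3KO of pair 1, and at 3.37 times and 0.692 times in pair 2. Both Mettl3WT libraries were above 1 and both Mettl3KO libraries below it (log2 differences -0.75 and -2.27, mean -1.51, exact permutation p = 0.333, the smallest this unpaired test allows). This ratio was chosen after the values had been seen.

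**Figure D4:**
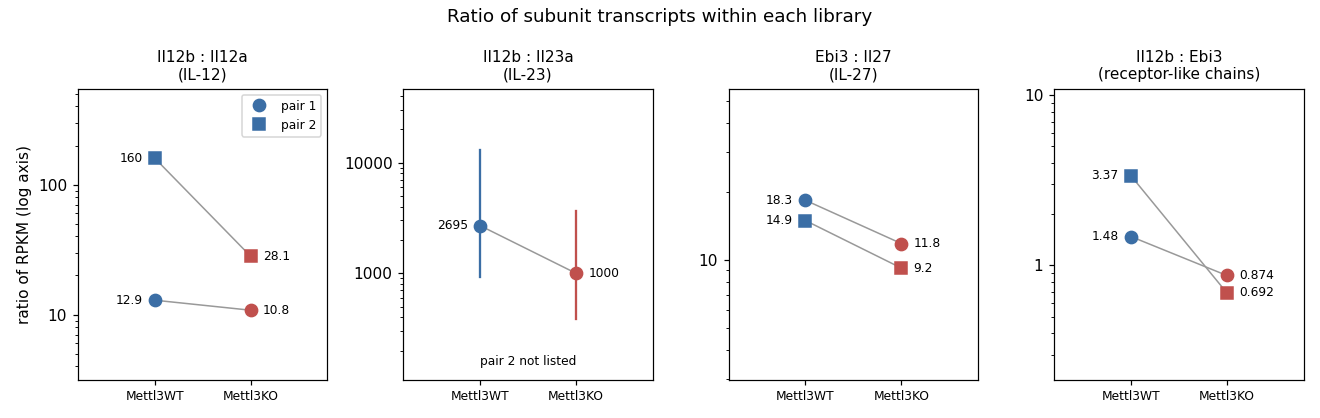
Ratio of subunit transcripts within each library, as RPKM over RPKM on log axes, with circles for pair 1, squares for pair 2, lines joining the libraries of a pair and, for Il12b to Il23a, bars for the 95% counting interval. The 4 ratios drawn, which leave out that of Ebi3 to Il12a, are lower in Mettl3KO than in Mettl3WT of the same pair, Ebi3 to Il27 by nearly the same factor in both pairs, and Il12b to Ebi3 passes from above 1 to below 1.

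Genes that receive and relay these cytokines were counted from listed genes of the pathway, and none passed limma's test. Of the 5 receptor chains, 3 could be tested, and 0 were higher in both pairs, against 19.1% of all genes tested. Only 1 was lower in both, against 30.8% (median log2 difference -0.19). That gene was Il23r, the IL-23 specific receptor chain, at 9.59 and 8.33 RPKM in Mettl3WT and Mettl3KO of pair 1 and at 6.56 and 2.62 RPKM in pair 2 (log2 difference -0.62, SE 0.25, adjusted p = 0.818 by limma). The other 2 tested, Il12rb2 of the IL-12 receptor and Il6st, the signalling chain that the IL-27 receptor shares, were higher in Mettl3KO in pair 1 and lower in pair 2. Their values were 4.75 and 4.79 then 5.21 and 4.31 RPKM for Il12rb2, and 22.0 and 23.1 then 12.5 and 8.79 RPKM for Il6st. Listed in pair 1 alone were Il12rb1, the chain shared by the IL-12 and IL-23 receptors, at 1.40 and 1.97 RPKM, and Il27ra, the specific chain of the IL-27 receptor, at 1.23 and 0.797 RPKM. Among the 8 kinases and STAT factors of the pathway 3 were lower in both pairs and 0 higher in both (median -0.21), beside the same shares. Those 3 were the receptor kinases Tyk2, at 57.1 and 54.8 RPKM in pair 1, then 37.9 and 23.0 in pair 2, and Jak2, at 101 and 91.2 then 49.4 and 41.3 RPKM, with the transcription factor Stat5a, at 21.6 and 18.7 then 12.7 and 9.67 RPKM.

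Upstream of the subunits, 15 transcription factors known to drive their genes were tested. In 12 of them the value was higher in Mettl3KO in pair 1 and lower in pair 2, against 27.6% of all genes tested. In 3 it was lower in both, against 30.8% (median 0.13 in pair 1 and -0.28 in pair 2). The 3 were Ets2, at 29.1 and 25.8 RPKM in pair 1, then 29.0 and 18.6 in pair 2, Runx1, at 9.37 and 7.43 then 8.46 and 7.47 RPKM, and Rel, at 40.5 and 37.9 then 12.1 and 11.0 RPKM. Rel encodes c-Rel, the NF-kB subunit on which Il12b transcription depends in macrophages. The log2 difference of Rel was -0.11 (SE 0.22, adjusted p = 0.994 by limma). These are mRNA levels and not the activity of c-Rel, whose part in the Il12b difference was not tested.

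The list of inhibitors of subunit expression had 14 of 15 genes tested (median -0.12). Of these, 4 were higher in both pairs, against 19.1% of all genes tested, and 3 lower in both, against 30.8%. Atf3, a repressor that LPS induces and that restrains Il12b in macrophages, was at 83.6 and 114 RPKM in pair 1, then 105 and 133 in pair 2 (log2 difference 0.39, SE 0.23, adjusted p = 0.994 by limma). Nfkb2 was at 119.8 and 113 then 95.0 and 45.0 RPKM (-0.57, adjusted p = 0.911), and Zc3h12a, an endonuclease that degrades cytokine mRNAs, at 34.5 and 30.7 then 17.4 and 10.9 RPKM. Il10, the cytokine that holds down Il12b in LPS-treated cells, was listed in pair 1 alone, at 3.81 and 2.03 RPKM.

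Among the 12 genes of the LPS receptor and its adaptors, 3 were higher in both pairs, against 19.1% of all genes tested. Lower in both were 4, against 30.8%, and none passed (median -0.05). The adaptor Tirap was at 4.73 and 5.09 RPKM in pair 1, then 3.91 and 6.73 in pair 2, and Myd88 at 42.8 and 60.8 then 38.0 and 40.3 RPKM. Ticam1, the adaptor of the interferon branch, was at 15.2 and 14.1 then 21.7 and 15.6 RPKM. No named gene of these lists had a log2 difference as far below 0 as Il12b.

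The genes whose profile over the 4 libraries lay nearest to each member, by Euclidean distance of centred log2(RPKM + 1) among protein-coding genes, were found as a description. For Il12b they were Gls2 (distance 0.608), Thbs4 (0.615) and Atp6v0c (0.648). Gls2, a glutaminase, was at 8.61 and 6.98 RPKM in pair 1, then 27.5 and 3.68 in pair 2. Atp6v0c, a subunit of the vacuolar proton pump, was at 188 and 114 RPKM in pair 1, then 295 and 124 in pair 2. Its pseudogene Atp6v0c-ps2 was higher in Mettl3KO in both pairs, by log2 ratios of 5.51 and 4.57. Whether reads were assigned differently between the gene and its pseudogene was not tested. For Il12a the nearest genes were Xaf1 (0.171), Spred1 (0.223) and Zfp971 (0.293). They were Stra6l (0.071), Dand5 (0.073) and Pdgfa (0.109) for Il27, and Mrps30 (0.015), Mitf (0.029) and Tada2a (0.039) for Ebi3. Even the nearest gene was thus farther from Il12b than the third nearest from any other tested member. The profiles were centred but not scaled, so this distance grows with the size of the differences between libraries and does not compare shape alone.

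Of the nearest tested protein-coding genes on each side of Il12b on chromosome 11, Ttc1 went opposite ways in the pairs. Ublcp1 was lower in Mettl3KO in both pairs, by less than Il12b. Ttc1, 652 kb before it, was at 20.6 and 22.6 RPKM in pair 1, then 28.2 and 24.7 in pair 2. Ublcp1, a nuclear phosphatase gene 39.9 kb after it, was at 6.51 and 5.85 then 4.71 and 3.15 RPKM, with a log2 difference of -0.30 (SE 0.21, adjusted p = 0.994 by limma).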

How the data were processed

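Polyadenylated RNA of 4 maDC libraries was sequenced. The submitters' processing notes name bcl2fastq, TopHat2 2.0.14, Cuffnorm and the build mm10. How genes were annotated and how strand and mates were treated is not given in the sources used here. Per the labels and methods, the authors deposited an RPKM table for each pair. The deposited log2 fold changes, p-values and q-values are the authors' own comparisons and were not used. The first table lists 23690 genes and the second 11835, with 11822 in both, of which 81.5% share a start or end with RefSeq GRCm38. Symbols turned into dates by a spreadsheet were restored for 15 of 22 and 11 of 16 genes.

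Library sizes came from the steps of low RPKM values (97.7%, 97.9%, 100% and 100% within 0.1 reads of a whole number, 20% by chance), and Poisson and binomial 95% intervals cover counting error only. They are too narrow if both mates of a fragment were counted. Values were tested as log2(RPKM + 1), which understates the change of low genes, with limma 3.58.1 in R 4.3.3, with the intensity trend and the pair as a block, over the 11757 genes in both tables with a mean of at least 1 RPKM (Benjamini-Hochberg, 0.05). The study sequenced littermates as pairs, while the labels give a replicate number alone, which was taken as the pair. Deviations of same-numbered libraries correlated (r = 0.697 over genes). A batch shared by same-numbered libraries would give this too, so it cannot show that they were littermates. Pair and any such batch cannot be told apart. P-values measure the spread between these libraries, which limma takes for each gene in large part from the other genes. This borrowed part counted for 8.68 degrees of freedom in the main fit and 16.5 among protein-coding genes alone. Named genes were the members, the 3 genes of each pathway list with the largest difference in the same direction in both pairs, and the 3 nearest profiles. Neighbouring genes were looked up. The members, lists and tests were chosen with earlier results of these data known. Alternatives were other pseudocounts, filters, no block, median centring, no trend, protein-coding genes (by the deposited gene type) alone and each library left out. The motif searches used numpy 2.4.6 and pandas 2.3.3.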

Additional observations from a re-analysis of the deposited data

How the results depend on the processing

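With the pair as a block 5 genes were called. There was 1 call with a pseudocount of 0.1, 2 with 0.5, 42 among protein-coding genes alone, 1 with libraries centred on their medians, 0 with no replicate block (78 at an unadjusted p under 0.05), and 1 to 118 with a library left out, the highest without Mettl3KO replicate 1 (27 without Mettl3KO replicate 2, 3 without Mettl3WT replicate 1). Il12b passed among protein-coding genes alone (-1.52) and in no other setting tried, and its value ranged from -2.08 to -0.96 with a library left out. It was -1.52 with no replicate block, where no call of a member was gained or lost. The Il27 value stayed above 0 throughout, from 0.29 to 0.88 with a library left out.

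The sign turned for Ebi3 with centring (0.05) and, with a library left out, Ebi3 ranged from -0.15 to 0.13 and Il12a from -1.22 to 0.88. It also turned without Mettl3KO replicate 2 for Il23r, Jak2, Nfkb2, Rel, Stat5a, Tyk2 and Zc3h12a, without Mettl3WT replicate 1 for Jak2, Rel, Stat5a and Zc3h12a, and without Mettl3KO replicate 1 for Myd88. Fits with a library left out had no block, set a lone library against both of the other genotype and took it to vary as they do. Such fits mix differences between the pairs with those between the genotypes. With a library left out these genes ranged from -1.30 to 0.06 (Il23r), -0.76 to 0.36 (Jak2), -1.23 to 0.08 (Nfkb2), -0.96 to 0.74 (Rel), -0.72 to 0.16 (Stat5a), -0.99 to 0.23 (Tyk2), -1.10 to 0.31 (Zc3h12a) and -0.0018 to 0.58 (Myd88). At 2-fold 0 members met the fold rule.

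With a library left out the log2 ratio of Il12b to Il12a ranged from -2.95 to 0.26, that of Ebi3 to Il27 from -0.75 to -0.44 (-0.66 with no pseudocount) and that of Ebi3 to Il12a from -0.85 to 1.18. Alternatives for Ebi3 to Il12a and Il12b to Ebi3 were chosen after seeing the data. The ratio of Il12b to Il23a had 1 pair, so no library could be left out. Depth limits Il23a (3 and 4 reads) and, in pair 2, Il12a.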

Other observations

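Xist and the Y-linked genes Ddx3y, Kdm5d, Eif2s3y and Uty were all listed in the first table and none in the second, which lists only genes above 1 RPKM in both libraries. In pair 1, Kdm5d was at 4.35 RPKM in Mettl3WT and 0.00713 in Mettl3KO, Eif2s3y at 19.8 and 0.0408 RPKM, and Uty at 3.55 and 0 RPKM. Libraries of pair 2 from mice of the same sex would be listed with Xist or with Ddx3y if these had the levels of pair 1, so the missing entries are what libraries of different sex would give, though no value of pair 2 shows it.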
